A study of Homo sapiens with 8 samples.

Results

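H3K27ac at the FOXA genes was compared between human pancreatic progenitors (PPs) kept with DMSO and PPs kept with the BET inhibitor I-BET151. The peaks examined were those of the 4 H3K27ac lists that lay in the gene body of FOXA1, FOXA2 or FOXA3, or within 100 kb of either end of it, by the GENCODE release 44 annotation of hg38. Peaks that shared at least 1 bp across libraries were joined into regions, which gave 23 regions of 15752 in all, with 6 at FOXA1, 6 at FOXA2 and 11 at FOXA3. They held 19 and 22 peaks in DMSO replicates 1 and 2, and 22 and 21 peaks in I-BET151 replicates 1 and 2. The PPs of both groups came from a single human embryonic stem cell line, given as MEL1 in the labels and as MEL1 INS GFP/W in the study's methods, which carries a GFP reporter at the insulin locus, and were grown in EF6, a DMEM-based medium with B27, EGF, bFGF and 616452, an inhibitor of the TGFβ receptor. I-BET151 was given at 1 μM for 7 days, and the other group received the solvent DMSO. Each group had 2 H3K27ac libraries and 2 input libraries, and the labels do not say whether the replicates were separate cultures, so p-values measure only the spread between these libraries. The comparison addressed how BET inhibition alters the enhancer landscape of PPs.

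FOXA1, FOXA2 and FOXA3 are winged-helix transcription factors of the forkhead family. They are called pioneer factors because they can bind their sites on nucleosomes and open closed chromatin for other factors, and they are known for early roles in endoderm, liver and pancreas. FOXA2 is active from definitive endoderm onward and is required, together with FOXA1, for pancreatic expression of PDX1. H3K27ac, acetylation of lysine 27 of histone H3, lies at active promoters and enhancers, and BET proteins read acetylated lysines through the bromodomains that I-BET151 blocks.

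FOXA2 (ENSG00000125798.15) lies on the minus strand at chr20:22580998-22585455, and its neighbour downstream is LINC00261, a long noncoding RNA known to be expressed with it in endoderm. FOXA1 (ENSG00000129514.8) lies on the minus strand at chr14:37589552-37596059. FOXA3 (ENSG00000170608.3) lies on the plus strand at chr19:45863989-45873797, among closely spaced genes. Distances are counted from the gene start in the direction of transcription. The sequences below are the 300 bases around the summit of the strongest peak, read from the plus strand of hg38, and show the sites that the comparison turns on. The first, chr20:22568789-22569088, holds the FOXA2 summit that differed most between groups and lies in an intron of LINC00261. The second, chr20:22579387-22579686, lies between LINC00261 and the FOXA2 gene body. The third, chr14:37583544-37583843, is the distal FOXA1 region and the only one of the 23 with a FOXA motif, and the fourth, chr19:45876608-45876907, is the intergenic region downstream of FOXA3.
LINC00261 intron region: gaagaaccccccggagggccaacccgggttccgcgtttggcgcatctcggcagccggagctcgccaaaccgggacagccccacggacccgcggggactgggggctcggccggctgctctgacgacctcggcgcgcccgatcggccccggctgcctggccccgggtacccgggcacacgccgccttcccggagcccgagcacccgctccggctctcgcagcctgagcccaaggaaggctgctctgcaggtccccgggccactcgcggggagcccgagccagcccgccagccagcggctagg
Region between LINC00261 and FOXA2: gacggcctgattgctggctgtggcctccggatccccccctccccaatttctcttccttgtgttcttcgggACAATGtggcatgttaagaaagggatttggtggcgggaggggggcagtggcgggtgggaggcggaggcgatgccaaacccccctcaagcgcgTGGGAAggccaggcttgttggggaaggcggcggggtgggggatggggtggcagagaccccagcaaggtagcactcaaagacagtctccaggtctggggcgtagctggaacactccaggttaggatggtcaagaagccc
Distal FOXA1 region: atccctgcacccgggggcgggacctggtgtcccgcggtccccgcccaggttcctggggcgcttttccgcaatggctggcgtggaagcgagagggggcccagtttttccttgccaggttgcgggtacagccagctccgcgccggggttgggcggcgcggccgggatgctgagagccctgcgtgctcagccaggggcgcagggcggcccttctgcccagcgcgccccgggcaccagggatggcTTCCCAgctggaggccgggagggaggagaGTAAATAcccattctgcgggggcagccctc
Region downstream of FOXA3: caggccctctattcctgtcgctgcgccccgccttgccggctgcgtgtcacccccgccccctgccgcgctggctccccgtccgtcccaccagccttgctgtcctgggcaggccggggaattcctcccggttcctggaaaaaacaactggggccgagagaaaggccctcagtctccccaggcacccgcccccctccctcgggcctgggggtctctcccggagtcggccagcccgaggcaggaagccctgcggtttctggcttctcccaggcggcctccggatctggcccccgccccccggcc

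Capitals mark matches to the motifs searched within 150 bp of the summit on both strands, none of which contains another. The FOXA motif was searched as TGTTTAC, and in a second accepted form as TATTTAC, and 1 of 23 regions held it against 1.66% of all regions. In the distal FOXA1 region it is the last run of capitals, the reverse complement of the second form, and the other capitals there are the reverse complement of an RBPJ motif, TGGGAA. The region between LINC00261 and FOXA2 carries a SOX motif and an RBPJ motif. SOX motifs were searched as ACAAAG and in a second accepted form as ACAATG. RBPJ motifs were present in 4 of 23 regions against 20.1% of all, and SOX motifs in 5 of 23 against 14.2%. Motifs of 4 further families had 0 matches in the 23 regions. These were the GATA motif AGATAA, present in 2.39% of all regions, and the AP-1 motif TGANTCA, present in 3.69%. The HNF6 motif, searched as ATCGAT and in a second accepted form as ATCAAT, was present in 1.56%, and the homeobox motif TAATTA in 0.667%. No match says only that these letters were not in this window. The windows were GC-rich, with a median of 68.8% over all regions and 76.4% in the LINC00261 intron region, which held none of these motifs.

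RefSeq promoter entries (GRCh38.p14) were matched for 2 of the 3 members, FOXA1 and FOXA3. RefSeq places the FOXA1 start inside the longer GENCODE gene, so the 250 bases before it, on the minus strand at chr14:37595250-37595499, lie in the GENCODE gene body. They fall inside the FOXA1 promoter region that was acetylated in all 4 libraries, and are shown in the direction of transcription with SOX motifs in capitals.
FOXA1 promoter: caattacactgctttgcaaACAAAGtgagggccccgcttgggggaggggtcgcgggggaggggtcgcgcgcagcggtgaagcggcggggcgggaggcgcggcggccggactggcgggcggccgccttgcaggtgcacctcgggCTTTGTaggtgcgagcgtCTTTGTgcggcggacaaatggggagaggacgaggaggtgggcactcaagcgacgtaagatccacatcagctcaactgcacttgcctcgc

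The 3 SOX matches in it compare with at least 1 in 21.2% of 35116 promoters of the same length. A FOXA motif was in neither promoter and in 5.27% of all promoters. The promoter of FOXA3 had 1 AP-1 match, a motif present in 6.57% of promoters.

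Depth after duplicate removal was worked out as 7.96 and 9.84 M (mega) ChIP reads in DMSO and 7.76 and 8.04 M in I-BET151, and the inputs had 2.67 to 3.04 M. The lists covered 9.91 and 9.87 Mb in DMSO and 9.19 and 8.62 Mb in I-BET151. As a check of the cell type, the PP markers PDX1, NKX6-1, SOX9 and ONECUT1 had a summit within 3 kb of a start in every library, and PTF1A had none. Endocrine, pluripotency and mesenchymal markers had 0 in every library. Among hepatic markers APOA1 alone was called, in all 4. The intestinal markers CDX2 and VIL1 were called in all 4 libraries except VIL1 in I-BET151 replicate 2. Of the 2 endothelial markers, PECAM1 was called in both DMSO libraries but in no I-BET151 library, and CDH5 in none, and the part of such cells in the differences was not tested. More acetylated cells and more acetylation per cell cannot be told apart in these bulk libraries.

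Acetylation around FOXA2 was higher with I-BET151 in every region that all 4 libraries shared, whereas at FOXA1 and FOXA3 some regions were higher and others overlapped between groups. Summit height is given as the number of ChIP reads over the summit divided by the genome-wide mean level of that library. All 5 shared FOXA2 regions were higher in both I-BET151 libraries than in both DMSO libraries, with height ratios of 1.52 to 2.28. The same held for 3 of 5 shared regions at FOXA1 and 5 of 8 in the FOXA3 window, and 0 of these 18 regions were lower. Over the genome 40.1% of 10128 shared regions were higher in this sense and 28% were lower, and the median log2 height ratio was 0.05. With 2 libraries against 2, the smallest p that the two-sided exact permutation test can give is 0.33, so no single difference could pass a threshold of 0.05.

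**Figure D1:**
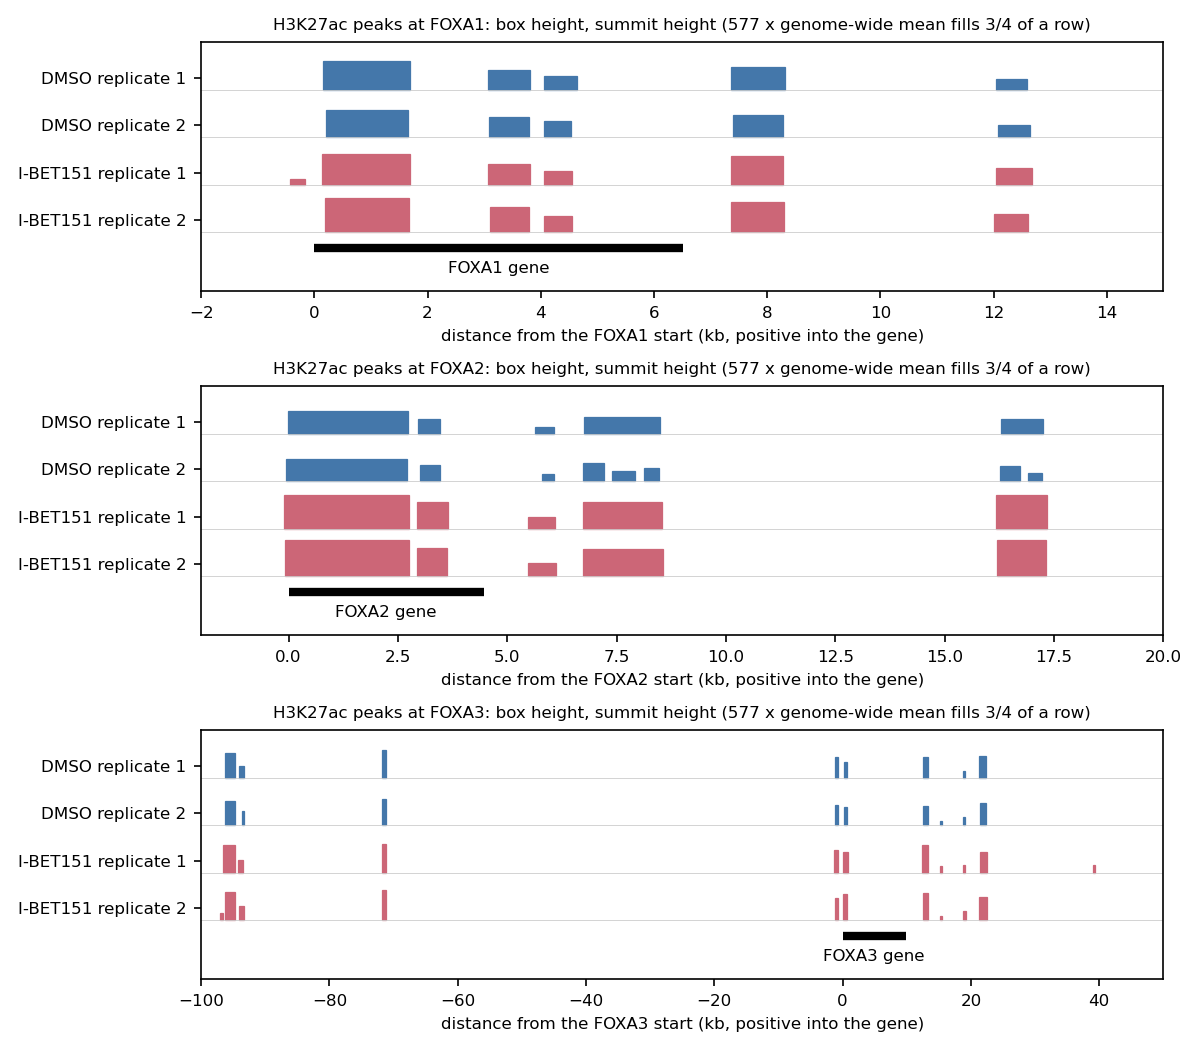
H3K27ac peaks of each library around FOXA1, FOXA2 and FOXA3, by distance from the gene start in kb (horizontal axis); blue boxes are DMSO and red boxes I-BET151 peaks, and box height is the summit height relative to the genome-wide mean. The FOXA2 boxes are taller in both I-BET151 rows, up to 577, and DMSO replicate 2 divides the 2 wide regions near LINC00261 into several peaks; the FOXA2 region 94.3 kb downstream is outside the range drawn.

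At FOXA2, the promoter region chr20:22582693-22585552 covers the gene start and has its summit in an intron 1.87 kb from the start. Its summit height was 374 and 368 in DMSO and 551 and 577 in I-BET151. Both I-BET151 libraries were above both DMSO libraries, with means of 371 ± 4.48 and 564 ± 18.8 (SD, n = 2) and a ratio of 1.52. The fold enrichment over local background that the peak caller gave was 10.5 and 9.84 in DMSO and 13.2 and 26.1 in I-BET151, so the groups did not overlap on that scale either. The input level at the summit of each library was 32.6 and 34.0 times the input's genome-wide mean in DMSO. It was 38.5 times in I-BET151 replicate 1 and 18.2 times in replicate 2. The summits of these I-BET151 peaks lay at different positions, chr20:22583119 in replicate 1 and chr20:22583581 in replicate 2. In I-BET151 replicate 2 the promoter peak had rank 5 in the whole list by significance. The promoter peak stood at rank 210 in I-BET151 replicate 1 and at ranks 1026 and 1539 in DMSO. In I-BET151 replicate 1 the best-placed FOXA2 peak, at rank 167, was that of the LINC00261 intron.

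Further into the gene, the region chr20:22581809-22582529 has its summit in the coding exon. Its height was 246 and 263 in DMSO and 433 and 451 in I-BET151. The groups were apart, with a ratio of 1.74, and the folds of 7.62 and 4.16 against 13.9 and 18.6 were apart as well.

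Downstream of the gene, 3 shared regions lie in LINC00261 or beside its start. The region that carries the LINC00261 start, chr20:22576906-22578726, had heights of 276 and 294 in DMSO and 437 and 444 in I-BET151, a ratio of 1.55. Its folds of 9.49 and 11.3 in DMSO and 10.5 and 18.4 in I-BET151 overlapped, and it was the single shared FOXA2 region for which the 2 scales differed in that respect. The region between LINC00261 and FOXA2, chr20:22579336-22579985, was the weakest of the 5, at 107 and 113 in DMSO and 193 and 216 in I-BET151. It was higher in both I-BET151 libraries by a ratio of 1.85.

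The largest difference was in the LINC00261 intron region, chr20:22568120-22569275, whose summit lies 16.5 kb from the FOXA2 start. Its height was 241 and 252 in DMSO and 545 and 577 in I-BET151. The means were 246 ± 8.16 and 561 ± 22.6 (SD, n = 2), a ratio of 2.28, and 18 of the 10128 shared regions of the genome had a larger one. Read counts at the summit were 193 (95% exact Poisson interval 167 to 222) and 227 (198 to 259) in DMSO against 398 (360 to 439) and 428 (388 to 471) in I-BET151. The intervals, which cover counting error only, did not overlap between groups. The fold was 4.15 and 3.77 in DMSO and 14.3 and 13.0 in I-BET151. Ranked by significance, the peak stood 61.9% and 68.6% of the way down the DMSO lists and 1.30% and 1.36% down the I-BET151 lists. The other shared FOXA2 regions ranked 82, 133, 315 and 350 of 10128 by the same ratio.

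A sixth FOXA2 region, chr20:22491043-22491397, lies in intergenic sequence 94.3 kb downstream of the gene start. It was called in DMSO replicate 1 at a height of 48.6 and in I-BET151 replicates 1 and 2 at 141 and 101, and it was absent from the list of DMSO replicate 2. A region absent from a list did not pass the threshold there, which does not show that acetylation was absent.

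At FOXA1 the height ratio was largest in the region farthest from the gene, and the fold ratio at the promoter. The distal region chr14:37583383-37584044, in intergenic sequence 12.4 kb from the start, had heights of 168 and 198 in DMSO and 277 and 298 in I-BET151. The groups were apart with a ratio of 1.57, close to those of the FOXA2 regions, whereas its folds of 2.19 and 4.85 against 3.64 and 4.64 overlapped. The next region, chr14:37587752-37588704, covers an exon of the long noncoding RNA ENSG00000289903, and its heights of 368 and 369 in DMSO and 462 and 480 in I-BET151 were apart with a ratio of 1.28.

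Within the FOXA1 gene the differences were smaller. The coding exon holds 2 regions. The height of chr14:37591423-37592005 was 226 and 256 in DMSO and 219 and 258 in I-BET151, and that of chr14:37592251-37592998 was 329 and 332 against 329 and 401. Both overlapped between groups, with ratios of 0.991 and 1.10. The promoter region, chr14:37594363-37595919, was the highest FOXA1 region in every library, at 471 and 444 in DMSO and 499 and 556 in I-BET151. The groups were apart by a ratio of 1.15, which ranked 2672 of 10128. The folds of 8.55 and 7.42 in DMSO and 15.9 and 11.5 in I-BET151 were apart as well, whereas the raw read counts of 378 and 400 against 364 and 412 overlapped. A small peak upstream, chr14:37596222-37596484, was called only in I-BET151 replicate 1, at a height of 90.4.

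At FOXA3, 1 region has FOXA3 as its nearest protein-coding start. This promoter region, chr19:45864055-45864754, had heights of 259 and 297 in DMSO and 336 and 417 in I-BET151. The groups were apart with a ratio of 1.35, and the folds of 4.23 and 5.30 against 7.46 and 7.39 were apart too, whereas the raw reads of 208 and 267 against 245 and 309 overlapped. FOXA3 was the lowest of the 3 promoters in every library on the height scale, and FOXA1 was above FOXA2 in DMSO. With I-BET151 the FOXA2 promoter was above the FOXA1 promoter within each library, at 551 against 499 in replicate 1 and 577 against 556 in replicate 2, though the ranges over the libraries overlapped.

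The other 10 regions of the FOXA3 window are nearer to starts of other genes. The intergenic region chr19:45876442-45877357, 12.8 kb from the FOXA3 start and nearest to IRF2BP1, a corepressor, had heights of 340 and 319 in DMSO and 443 and 437 in I-BET151. It was apart between groups by a ratio of 1.33, close to that of the FOXA3 promoter. The promoter regions of SIX5 (a homeobox factor), DMWD and SYMPK (a scaffold of mRNA 3′ processing) had ratios of 1.14, 1.09 and 1.08 and were also apart. The IRF2BP1 promoter at 0.998, the DMPK region at 1.01 and an intergenic region 18.9 kb from the start at 1.11 overlapped. On the fold scale 5 of the 8 shared regions were higher with I-BET151, against 25.4% of 10317 shared regions in the genome, and 1, at SIX5, was lower, against 16.4%. Raw reads at the DMWD, SYMPK and IRF2BP1 promoters were lower in both I-BET151 libraries. Of the remaining 3 regions, one 15.3 kb from the start was missing from the list of DMSO replicate 1, and 2, at SIX5 and at MYPOP, were called in a single I-BET151 library.

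**Figure D2:**
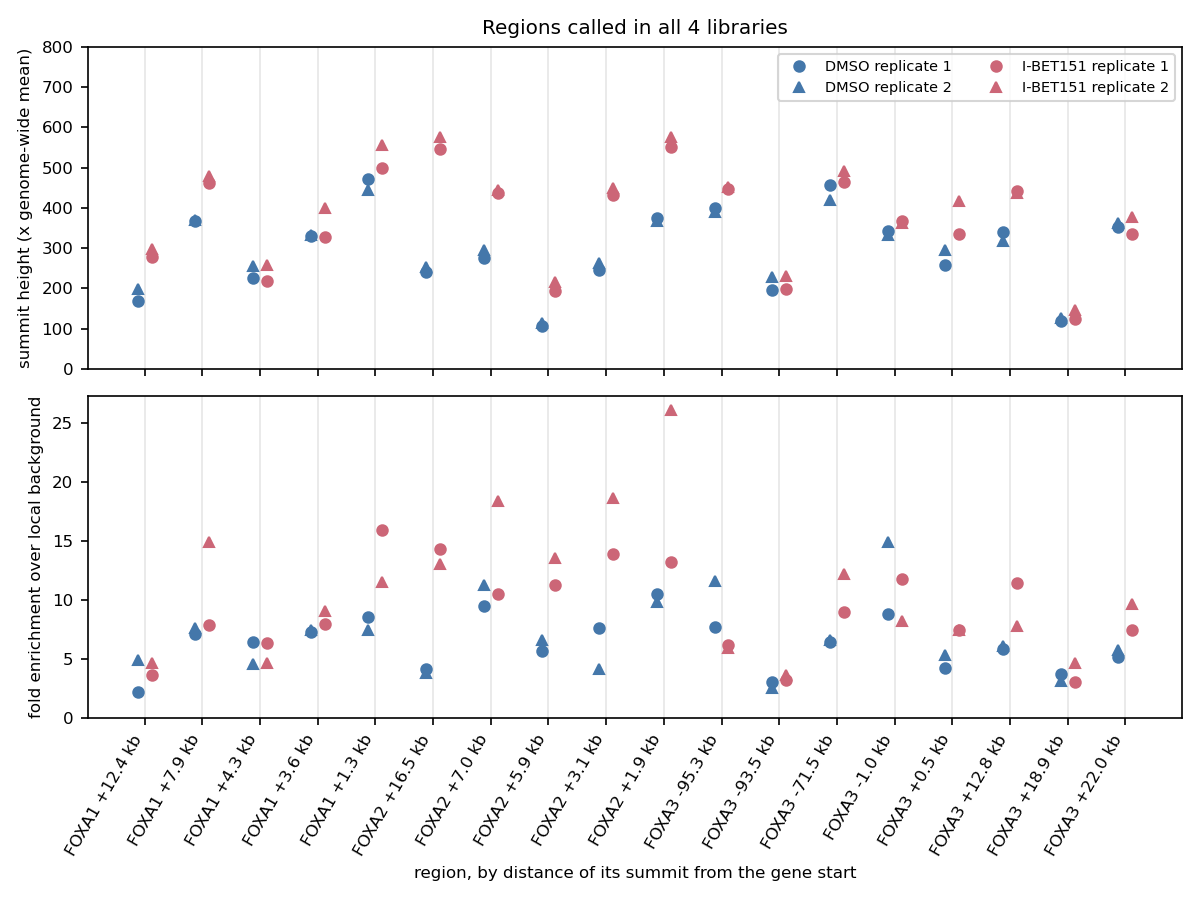
Summit height relative to the genome-wide mean (upper panel) and fold enrichment over local background (lower panel) of the 18 regions called in all 4 libraries, named by gene and distance of the summit from the gene start in kb; each symbol is 1 library. The red I-BET151 symbols lie above the blue DMSO symbols in all 5 FOXA2 regions of the upper panel and in 4 of 5 of the lower panel, where I-BET151 replicate 2 reaches 26.1.

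Summing the shared regions of each gene gave the same picture per library. For FOXA2 the summed height over 5 regions was 1243 and 1291 in DMSO and 2160 and 2265 in I-BET151. The means were 1267 ± 33.8 and 2212 ± 74.5 (SD, n = 2), 1.75 times as high with I-BET151. For FOXA1 the sums over 5 regions were 1562 and 1599 against 1786 and 1993, which is 1.20 times as high. Both genes were apart between groups, each with an exact p of 0.33. At the FOXA1 promoter, the highest region in its sum, raw reads overlapped, at 378 and 400 in DMSO against 364 and 412 in I-BET151. Duplicate removal limits a summit to 494 to 544 reads. The highest FOXA1 and FOXA2 summits lay near that limit, and its part in the sums and in their ratios was not tested. The difference between the genes was tested as the FOXA2 to FOXA1 ratio of the sums within a library, which was 0.796 and 0.808 in DMSO and 1.21 and 1.14 in I-BET151 (exact permutation p = 0.33, the smallest possible). The ratio of FOXA2 to the FOXA3 promoter region was 4.79 and 4.35 in DMSO and 6.43 and 5.43 in I-BET151, also apart. The FOXA2 sum was thus below the FOXA1 sum in both DMSO libraries and above it in both I-BET151 libraries.

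Heights were compared between groups only in regions called in all 4 libraries, so they cannot show whether regions came or went. By the peak calls, no whole region appeared or disappeared with I-BET151 in both libraries. Of the 23 regions 0 were gained (called in both I-BET151 and neither DMSO library) and 0 were lost (the reverse), against 2.81% and 8.6% of all regions. Leaving out 1 library made 1 region gained at FOXA1 without I-BET151 replicate 2, at FOXA2 without DMSO replicate 1, and at FOXA3 without any of the libraries other than DMSO replicate 1.

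The length covered by peaks, which does not use heights, was higher with I-BET151 at FOXA2 and FOXA3. In the FOXA2 window it was 6.68 and 5.64 kb with DMSO and 7.49 and 7.45 kb after I-BET151. Both I-BET151 libraries were above both DMSO libraries, with means of 6.16 ± 0.738 and 7.47 ± 0.0332 kb (SD, n = 2), a difference of 1.31 kb (two-sided exact permutation p = 0.33). In the FOXA3 window it was 6.36 and 5.90 kb against 7.43 and 7.25 kb, a difference of 1.21 kb that was also apart (exact p = 0.33). Around FOXA1 it was 4.33 and 4.11 kb against 4.59 and 4.24 kb, which overlapped (difference 0.192 kb, exact p = 0.67). Across 16664 protein-coding genes with a peak in the same window 12.1% were higher with I-BET151 in both libraries and 48.5% were lower, and the median difference was -0.15 kb. Ordered by the difference, FOXA2 stood at place 97, FOXA3 at 115 and FOXA1 at 1823. Without DMSO replicate 2 the FOXA2 difference was 0.791 kb, and with peaks assigned to the nearest start of any gene it was 0.299 kb, since LINC00261 then takes 3 of the regions and ENSG00000204684 another. For FOXA3 the difference was 0.553 kb with 50 kb on either side and 0.16 kb for the region at its own promoter. Part of the covered length lay in regions not called in all 4 libraries. In the FOXA3 window, peaks of 401 and 286 bp were each called in a single I-BET151 library. The region 15.3 kb from the FOXA3 start was missing in DMSO replicate 1. At FOXA1 a peak of 263 bp was called only in I-BET151 replicate 1. The FOXA2 region 94.3 kb downstream covered 279 bp in DMSO replicate 1 and was not called in DMSO replicate 2. With I-BET151 that region covered 354 bp in replicate 1 and 324 bp in replicate 2.

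**Figure D3:**
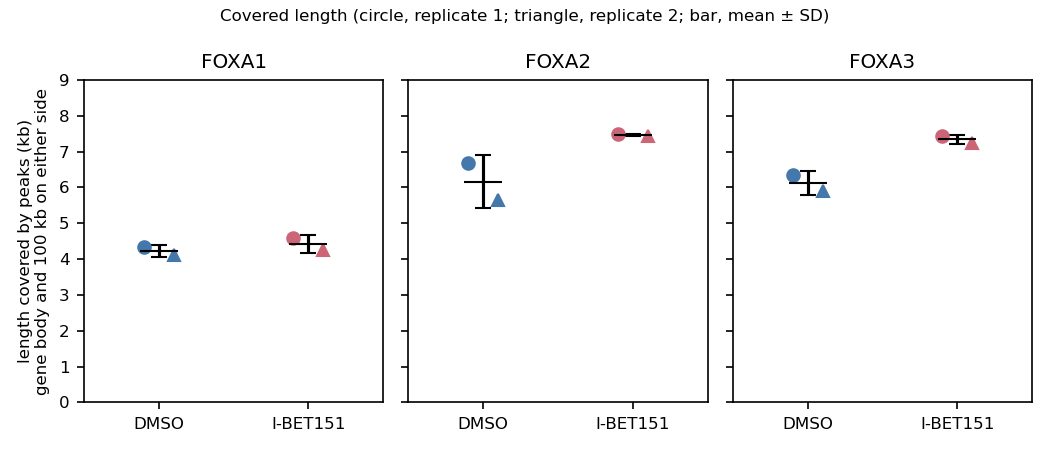
Length covered by H3K27ac peaks in kb from 100 kb before to 100 kb after each of FOXA1, FOXA2 and FOXA3; symbols are libraries and bars the mean ± SD of 2 libraries. The I-BET151 libraries lie above the DMSO libraries at FOXA2 and FOXA3, and the groups overlap at FOXA1.

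Within single regions the covered length was higher in both I-BET151 libraries in 5 of 5 shared FOXA2 regions, 1 of 5 FOXA1 regions and 4 of 8 regions of the FOXA3 window, against 16% of shared regions in the genome, and it was lower in 0 of them against 33.3%. The number of peaks gave another order, because DMSO replicate 2 split 2 FOXA2 regions into 2 and 3 peaks. It was 6 and 8 in DMSO and 6 and 6 in I-BET151 for FOXA2, 5 and 5 against 6 and 5 for FOXA1, and 8 and 9 against 10 and 10 for FOXA3.

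The genes whose covered lengths followed FOXA2 most closely across the 4 libraries were SIX5, MEIOSIN and SEPHS2, with Euclidean distances of 0.0480, 0.0511 and 0.0622 after each gene was divided by its mean. The first 2 of them share peaks with the FOXA3 window. For FOXA3 the closest were SNX25, EGFR and EIF4A3 (0.0185 to 0.0310), and for FOXA1 they were PEMT, MTCL1 and ABL1 (0.0114 to 0.0133). They were taken from 4096 to 6830 genes with a covered length near that of the member, by their profile over 4 libraries.

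Windows of transcription factors that act with FOXA proteins in endoderm and pancreas were more covered with I-BET151 in 11 of 19 cases, beside 12.1% of all genes. Of 20 listed partner factors 19 had a peak in the window, and beside the 11 that were higher 2 were lower (48.5% of all genes) and 6 overlapped, with a median difference of 0.319 kb beside -0.15 kb for all genes. ONECUT1 (HNF6), a cut-homeobox factor of PPs, had 6.20 and 5.98 kb with DMSO against 8.80 and 9.31 kb with I-BET151. Its paralogue ONECUT2 had 6.95 and 6.57 kb against 9.64 and 8.88 kb. Both differed by more than the FOXA genes, at 2.96 and 2.50 kb. The zinc-finger factor GATA4, which works beside FOXA2 in endoderm, had 7.26 and 7.19 kb against 8.32 and 8.51 kb. SOX9, a factor that maintains PPs, had 3.74 and 3.11 kb against 4.67 and 4.10 kb. The 2 lower factors were HHEX, at 4.51 and 4.80 kb against 2.75 and 3.06 kb, and HNF4A, at 5.48 and 4.53 kb against 3.94 and 4.02 kb, both of which also act in liver. The list was chosen with results of these libraries known, so its count is not independent evidence of a direction.

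**Figure D4:**
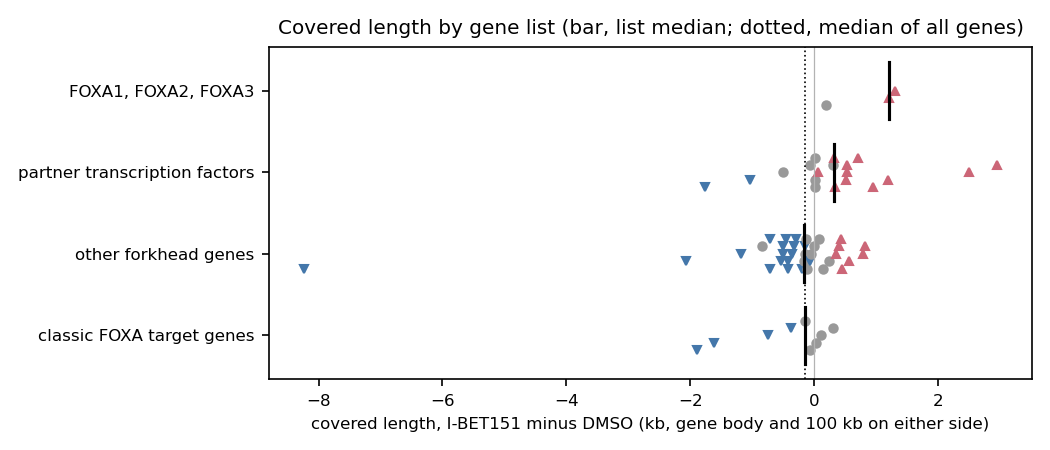
Difference in covered length, I-BET151 minus DMSO, in kb for each gene of 4 lists; upward red triangles mark genes higher in both I-BET151 libraries, downward blue triangles genes lower in both, and grey circles genes that overlapped. The partner factors lie mostly to the right of 0 and the other forkhead genes are centred near the dotted median of all genes.

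The rest of the forkhead family held genes that were higher and genes that were lower. Of 48 other forkhead genes 34 had a peak, with 7 higher (20.6%, beside 12.1% of all genes), 17 lower (50%, beside 48.5%) and 10 overlapping, and a median difference of -0.154 kb, near that of all genes. The 4 largest higher differences were at FOXC1 (0.82 kb), FOXL3 (0.796 kb), FOXD1 (0.564 kb) and FOXK1 (0.458 kb). FOXC1 had 1.13 and 1.74 kb against 2.69 and 1.81 kb. The lowest was the window of FOXH1, the SMAD partner of nodal signalling, at 20.6 and 19.8 kb against 12.7 and 11.2 kb. These lengths are of whole windows, which can hold peaks of neighbouring genes. Next came FOXR1, FOXJ1 and, from the same peak, FOXQ1 and FOXF2. That peak covered 0.714 and 0.702 kb in DMSO and was absent from both I-BET151 lists. FOXC2 and FOXL1 also share their window.

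Of 10 genes known as FOXA targets in liver, lung and pancreas 9 had a peak in the window, with 0 higher, 4 lower (44.4%) and 5 overlapping and a median difference of -0.146 kb. These shares and the median lie near the 12.1% higher, 48.5% lower and -0.15 kb of all genes. Of the 4 lower genes, APOA1, an apolipoprotein, had 4.84 and 4.98 kb in its window against 3.34 and 2.71 kb. The lung surfactant gene SFTPB had 4.92 and 4.68 kb against 3.58 and 2.80 kb. The others were the liver aminotransferase TAT and PCK1, the gluconeogenic enzyme, whose window held no peak in either I-BET151 list. Here too the window can hold peaks of neighbouring genes. PDX1 is used together with NKX6-1 to define pancreatic progenitors and is on both lists. Its window had 10.1 and 9.74 kb with DMSO against 10.9 and 9.53 kb with I-BET151, which overlapped.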

How the data were processed

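H3K27ac ChIP-seq of PPs derived from MEL1 INS GFP/W cells gave 4 peak lists, 2 per group, with groups and replicate numbers taken from the library titles, and 4 input libraries that were not analysed as samples of their own. Per the study's methods and the submitters' processing notes, reads were aligned to hg38 with Bowtie2 2.2.5, filtered and freed of duplicates, and peaks were called in each library with MACS2 2.1.2. The deposited lists hold a score that was not used here, a fold enrichment (ratio of the summit to its local background), and p-value and q-value as −log10, written by the authors' peak caller.

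Reads at each summit and the local input level were worked out from fold and p-value, since MACS2 adds a pseudocount of 1 and uses a Poisson tail. Whole reads (within 0.05) came out for 100% of peaks with 1 solution, and 98.1 to 99.0% of peaks were resolved. Library depth followed from the lowest input level and the 2.7e+09 bp genome size. Duplicate removal limits a summit to 494 to 544 reads. That is a height of 678 and 549 in DMSO replicates 1 and 2, and of 696 and 672 in I-BET151. The highest FOXA2 and FOXA1 summits, at up to 428 and 412 reads, lay near that limit. Their I-BET151 heights above 549 exceed what DMSO replicate 2 could reach. The procedure was tested on simulated data.

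Windows, lists, motifs and markers were chosen with earlier results of these data known, and 1 PP marker is not reported here. Named genes are the members, genes with a start within 3 kb of a summit in a window, the 3 genes most like each member (more than 1 Mb away or on another chromosome, 0.5 to 2 times its mean covered length), and per list the 4 largest differences without overlap in each direction. Each difference of group means was tested by exact permutation, two-sided, with all 6 ways to assign the 4 libraries. The alternatives were windows of 50 and 10 kb, −log10 q of at least 5, equal numbers of top-ranked peaks, other merging rules, each library left out, and a replicate block. Python 3.11.15, pandas 2.3.3, scipy 1.17.1 and pysam 0.24.0 were used.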

Additional observations from a re-analysis of the deposited data

Results flagged for a closer look

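The input level at the FOXA summits, against which peaks were called, is given as a multiple of the genome-wide input level. That level was taken as the lowest over the peaks of each library, so no summit can lie below it. At the FOXA summits the median was 49.0 times that level over 19 peaks in DMSO replicate 1 (range 3.26 to 75.1). For DMSO replicate 2 it was 39.7 times over 22 peaks (9.14 to 86.9). In I-BET151 it was 37.0 times over 22 peaks in replicate 1 (3.56 to 73.5) and 36.6 times over 21 peaks in replicate 2 (9.11 to 73.2). It was picked out because a signal in input is not part of the H3K27ac measurement, and over all peaks of the lists the median ran from 37.8 to 44.4. Within the FOXA3 window the median was 57.1 and 49.1 times in DMSO and 40.1 and 38.6 times in I-BET151, at FOXA1 49.0 and 45.3 against 35.0 and 44.7, and at FOXA2 27.8 and 35.9 against 31.5 and 19.3, so it was lower with I-BET151 in both libraries at FOXA3 and FOXA1 and overlapped at FOXA2. Peak calls, covered length and fold depend on the input level at each site. The summit height does not, but it is scaled by the library depth, which was worked out from the genome-wide input level. The part of the input levels in the differences was not tested.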

How the results depend on the processing

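No comparison whose groups were apart changed direction in any of the 266 recomputed values. Height ratios near 1 took the other sign in 7 values, from 4 FOXA1 and FOXA3 regions whose groups overlapped. With equal numbers of top-ranked peaks (12312 per library) 4.69% of all regions were gained and 1 was gained at FOXA3. Leaving out 1 library at a time moved the number of peaks at FOXA1 between 0 and 1 and at FOXA2 between -2 and 0 (I-BET151 minus DMSO), and gained regions between 0 and 1 at FOXA1, FOXA2 and FOXA3. It moved the share of genes higher between 15.6 and 27.8%, of regions gained between 3.86 and 6.12% and of regions lost between 10.6 and 14.0%, since fewer libraries then have to be on one side. The 5 FOXA2 height ratios, in alternatives chosen after seeing the data, lay between 0.57 and 1.23 on the log2 scale, and 3 of 90 recomputed height ratios moved beyond 1 SD, all without I-BET151 replicate 2 (FOXA1 and FOXA3 regions).

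The replicate block, the mean of the differences within same-numbered libraries, gave 0.192, 1.31 and 1.21 kb for FOXA1, FOXA2 and FOXA3 and changed no call. The labels do not say whether same-numbered libraries were made together. The correlation of replicate differences in peak calls between groups was 0.012, which cannot decide that. The covered length at FOXA1 was 0.0165 to 0.367 kb higher with I-BET151 when 1 library was left out, at FOXA2 0.791 to 1.83 kb and at FOXA3 0.98 to 1.44 kb. At 7.76 to 9.84 M reads weak acetylation below the calling threshold is not seen, and 2 libraries a group leave every p at 0.33 or above.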
